A study of Caenorhabditis elegans with 9 samples.

Results

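Many genes of the nematode Caenorhabditis elegans have no name beyond the one given when their stretch of genome was sequenced: the clone, a dot and a running number, as in ZK177.9. Genes that share the part before the dot therefore come from the same clone. The genes described here are those known only by such a sequence name whose transcripts stood far higher in adults of both ages than in L4 larvae, and within a set limit of each other at the 2 adult ages. The rule took 1 probe set for each gene, the one with the highest mean, and asked for a mean log2 expression at least 3.5 above L4 at Day 6 and at Day 15, with less than 2 between Day 15 and Day 6. C17H12.8 and F55G11.8 were left out by the rule. It kept 133 genes of 17118 with a probe set, or 133 of 6715 with only a sequence name (1.98%, and 2.94% of the 4521 of these that were tested, having a mean of at least 4 at 1 age or more). The genes were thus chosen by these measured differences between ages, all 3 of them, so their sizes are given below as a description and not as a test.

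The study followed gene expression as hermaphrodite populations of the wild-type N2 strain grew old at 20°C. RNA of 3 independently propagated populations was hybridized to Affymetrix C. elegans arrays at the last larval stage (L4), at Day 6 and at Day 15 of adulthood, 3 arrays an age and 9 in all, from 100 ng of RNA each. In each of 3 runs of the protocol an L4 population was divided into animals harvested at once and animals left to age. The 6 adult samples had been on plates with 0.05 mg/mL FUDR, an inhibitor of DNA synthesis that keeps progeny from developing, and the L4 samples had not, so age and drug cannot be told apart in any comparison of adults with larvae. These are whole animals, in which more cells of a type and more RNA per cell cannot be told apart either.

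As background, the L4 hermaphrodite still makes sperm, moults once more and then switches its germ line to oocytes. Oocytes are loaded with yolk and with maternal messages, fertilized, wrapped in an eggshell and held in the uterus before laying. No role can be given here for the 133 genes themselves: neither the array annotation nor the RefSeq gene table gives them more than a sequence name and a gene type. Of the 133, 125 are protein-coding and 8 are pseudogenes (6.02%, against 3.70% of the 4511 unnamed genes tested that have a gene type in the table). The genes are also short: the median gene length was 1.56 kb (quartiles 1.04 and 2.24 kb) for the 133 genes, against 2.00 kb (1.24 and 3.34 kb) for unnamed genes tested.

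The deposited values are log2 expression after GCRMA, and 4 was taken as the level of background. On the 9 arrays the median over probe sets lay between 5.42 and 5.73, and 59.8 to 61.6% of probe sets were at 4 or above. Adult arrays of an age correlated at 0.987 to 0.992 over genes tested and L4 arrays at 0.903 to 0.972. L4 replicate 2 stood apart from the other 2 larval arrays in more than 1 kind of transcript. The median over 17 oocyte and eggshell genes was 8.44, 11.01 and 9.44 in L4 replicates 1, 2 and 3. Over 13 hypodermal and cuticle genes it was 10.6, 8.69 and 10.54, although 4 of the 13 were above the mean of the other larval arrays in L4 replicate 2. Values that rest on this array are given below with and without it.

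Over the 133 genes, the mean log2 expression had a median of 3.60 in L4 larvae (from 1.29 to 8.27), 9.18 at Day 6 (from 5.5 to 13.67) and 8.97 at Day 15 (from 5.59 to 13.01). Each of them was at 4 or above on every adult array, and in all 133 every adult array lay above every larval array, a separation seen in 39.6% of all genes tested at Day 6 and in 41.1% at Day 15 (and in the lower direction in 32.6% and 32.5%). The median change was 5.25 for Day 6 minus L4 and 4.77 for Day 15 minus L4, beside 0.17 and 0.23 over all 11758 genes tested. Because values under 4 are not distinguished from background, folds were computed with such values set to 4, which makes them lower bounds for genes under 4 in L4. On that scale Day 6 exceeded L4 by a median of 24.4-fold (2.83 to 269) and Day 15 exceeded L4 by a median of 19.7-fold (3.02 to 172). All 133 were called higher than in L4 at both adult ages by limma (adjusted p under 0.05 and at least 2-fold), where 29.3% of all genes tested were called higher at Day 6 and 32.3% at Day 15; the thresholds of the rule fix this count and nothing is read from it.

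**Figure D1:**
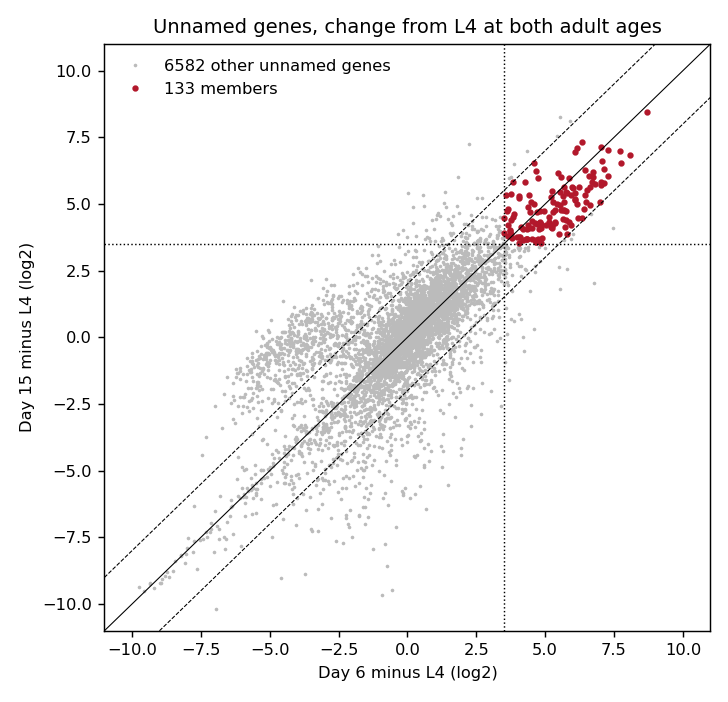
Mean log2 difference from L4 at Day 6 (x axis) and at Day 15 (y axis) for each gene with only a sequence name; red points are the 133 chosen genes and grey points the 6582 others. Dotted lines mark the 3.5 threshold, dashed lines a difference of 2 between the adult ages and the solid line equal values; most red points (96 of 133) lie below the solid line, with Day 15 lower than Day 6.

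Being off in larvae was true of only some of the genes. In 54 of the 133 (40.6%) all 3 L4 arrays were under 4, a pattern found in 7.67% of all genes tested. The rule favours genes that are low in larvae, so nothing is read from this excess. Of the 100 genes with a letter name that met the same thresholds, 40 (40%) had the pattern. Another 34 of the 133 were at 4 or above on all 3 L4 arrays, and 45 had L4 arrays on both sides. The median of the adult means was 7.66 for the 54 genes at background in larvae, 9.29 for the 45 and 10.75 for the 34; the rule asks for a fixed rise, so a gene with a higher larval level could pass only with a higher adult level.

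Of the 54 genes at background in every larval array, ZK177.9 on chromosome II reached by far the highest adult level, and its smaller rise was the largest of the 133. Its log2 expression was 2.48, 3.19 and 3.26 in L4 larvae, 11.68, 11.65 and 11.66 at Day 6, and 11.31, 11.46 and 11.52 at Day 15. Its 6 adult arrays lay within 0.37 of each other, and its means stood at least 203-fold over L4 at Day 6 and at least 172-fold over L4 at Day 15. B0416.4, C49F5.6 and T01G5.7 followed, with adult means that did not come within a log2 unit of it: B0416.4 had 3.42, 3.93 and 3.28 in L4 larvae, 10.28, 10.69 and 10.75 at Day 6, and 8.87, 9.68 and 9.23 at Day 15. C49F5.6 had 2.44, 3.24 and 2.15 in L4 larvae, 9.68, 9.75 and 9.54 at Day 6, and 9.07, 9.42 and 9.17 at Day 15. T01G5.7 had 2.69, 2.58 and 2.04 in L4 larvae, 9.75, 10.04 and 9.35 at Day 6, and 8.31, 8.87 and 8.31 at Day 15. All 3 were lower at Day 15 than at Day 6 on every array. At the other end, Y65B4A.8 averaged 1.98 ± 0.73 in L4, 5.5 ± 0.16 at Day 6 and 5.89 ± 0.20 at Day 15 (SD, n = 3), so that its lower bound over L4 was only 2.83-fold at Day 6 and 3.71-fold at Day 15.

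The other genes with the largest rises had at least 1 larval array above 4. F15E6.3 on chromosome IV had 5.93, 5.63 and 5.25 in L4 larvae, 13.72, 13.73 and 13.57 at Day 6, and 12.92, 12.48 and 11.97 at Day 15. The Day 6 values were the highest of the 133 genes and stood 269-fold over L4, and the Day 15 arrays all lay below the Day 6 arrays. C50F7.5, also on IV, had 4.15, 3.10 and 3.5 in L4 larvae, 10.88, 10.43 and 11.29 at Day 6, and 11.01, 10.40 and 10.43 at Day 15, with adult ages that overlapped. C53B7.3 on X had 5.79, 7.54 and 4.24 in L4 larvae, 12.94, 12.81 and 12.85 at Day 6, and 13.25, 12.87 and 12.90 at Day 15. Its larval arrays spread over 3.30 log2 units while its adult arrays lay within 0.44.

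The remaining genes with the highest adult levels were above background on every larval array. On L4 replicates 1 and 3 they lay below the medians of all genes tested, 8.11 and 8.10. ZK813.3 on X had 6.24, 9.39 and 5.73 in L4 larvae, 13.16, 13.08 and 13.14 at Day 6, and 12.88, 12.58 and 12.73 at Day 15. Y62H9A.3, also on X, had 6.31, 9.08 and 5.91 in L4 larvae, 12.81, 12.81 and 12.90 at Day 6, and 12.60, 12.44 and 12.64 at Day 15. In both genes L4 replicate 2 lay above the other larval arrays and below every adult array. W02D9.6 on chromosome I had 7.17, 10.48 and 7.16 in L4 larvae, 11.99, 11.73 and 11.93 at Day 6, and 13.16, 12.84 and 12.99 at Day 15. It had the highest larval mean of the 133 genes (8.27 ± 1.91, SD, n = 3), so it was not off in larvae, and its Day 15 arrays all lay above its Day 6 arrays.

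**Figure D2:**
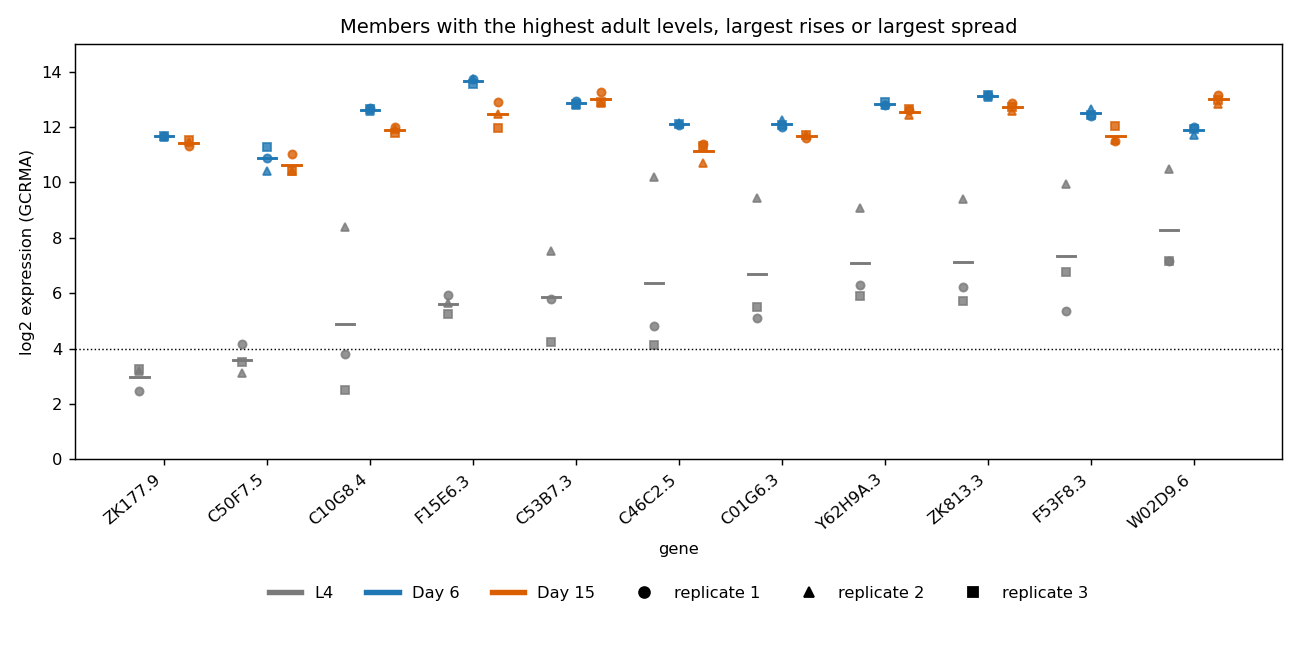
Log2 expression on each array (y axis) of the genes among the 133 with the highest adult levels, the largest rises or the largest spread within an age (x axis); grey is L4, blue Day 6 and orange Day 15, symbols are replicates, bars are means of 3 arrays and the dotted line is the background level of 4. All adult arrays of the genes shown are at 10.40 or higher, with ranges over the 6 adult arrays of 0.37 in ZK177.9 to 1.76 in F15E6.3, whereas L4 replicate 2 (triangle) is well above the other larval arrays in most of them.

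The spread within an age was larger in larvae than in adults. The median SD of the 133 genes was 0.62 in L4, 0.20 at Day 6 and 0.24 at Day 15, where over all genes tested it was 0.41, 0.18 and 0.22. The part of each array in the larval spread was not computed, but L4 replicate 2 often lay above the others. It was the highest of the 3 larval arrays in 93 of the 133 genes, where it was so in 41.1% of all genes tested. It lay a median of 0.78 above the mean of replicates 1 and 3, against 0.02 over all genes tested. In 36 of the 133 (27.1%) it lay at least 2 above that mean, as it did in 3.12% of all genes tested. C46C2.5 on IV showed this most: it had 4.80, 10.20 and 4.12 in L4 larvae, 12.09, 12.14 and 12.12 at Day 6, and 11.37, 10.69 and 11.32 at Day 15. Its L4 replicate 2 was 0.49 below its lowest Day 15 array, the smallest such gap of the 133, and 5.74 above the mean of the other larval arrays. C10G8.4 on V had 3.82, 8.39 and 2.50 in L4 larvae, 12.67, 12.57 and 12.65 at Day 6, and 12, 11.93 and 11.79 at Day 15. C01G6.3 on II had 5.09, 9.45 and 5.5 in L4 larvae, 11.99, 12.27 and 12.08 at Day 6, and 11.62, 11.70 and 11.73 at Day 15. F53F8.3 on V had 5.35, 9.96 and 6.75 in L4 larvae, 12.39, 12.65 and 12.43 at Day 6, and 11.49, 11.53 and 12.04 at Day 15. In all 4 genes L4 replicate 2 stood well above the other larval arrays, and no larval array reached an adult one.

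A gene with a higher larval mean could pass the rule only with a higher adult level. The 36 genes that were raised in L4 replicate 2 had higher medians than the other 97 on every larval and every adult array. Their medians were 4.07, 7.32 and 4.10 on the L4 arrays, 11.04, 11.07 and 11.08 at Day 6 and 9.98, 10.26 and 10.07 at Day 15. The other 97 genes had medians of 3.00, 3.5 and 3.03 on the L4 arrays, 8.50, 8.55 and 8.41 at Day 6 and 8.18, 8.47 and 8.20 at Day 15. None of the 36 came from the 54 genes at background on all larval arrays, where a value under 4 leaves little room for such a difference; 16 were of the 34 genes measured on every L4 array. When L4 replicate 2 was left out, the median change of the 133 was 5.54 for Day 6 minus L4 and 5.39 for Day 15 minus L4. It was the highest larval array in 93 of the 133, so leaving it out was bound to raise most of these changes. Nothing is read from the larger medians. The rule applied to the other 8 arrays kept 159 genes, 128 of them among the 133. L4 replicate 2 lay below the mean of the other larval arrays in 28 of the 133, and by at least 2 in 1 of them, C09E7.8 on III, which had 6.70, 4.39 and 6.29 in L4 larvae, 9.29, 9.49 and 9.17 at Day 6, and 10.44, 10.40 and 10.02 at Day 15, and without L4 replicate 2 its Day 6 rise was 2.82, under the threshold.

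**Figure D3:**
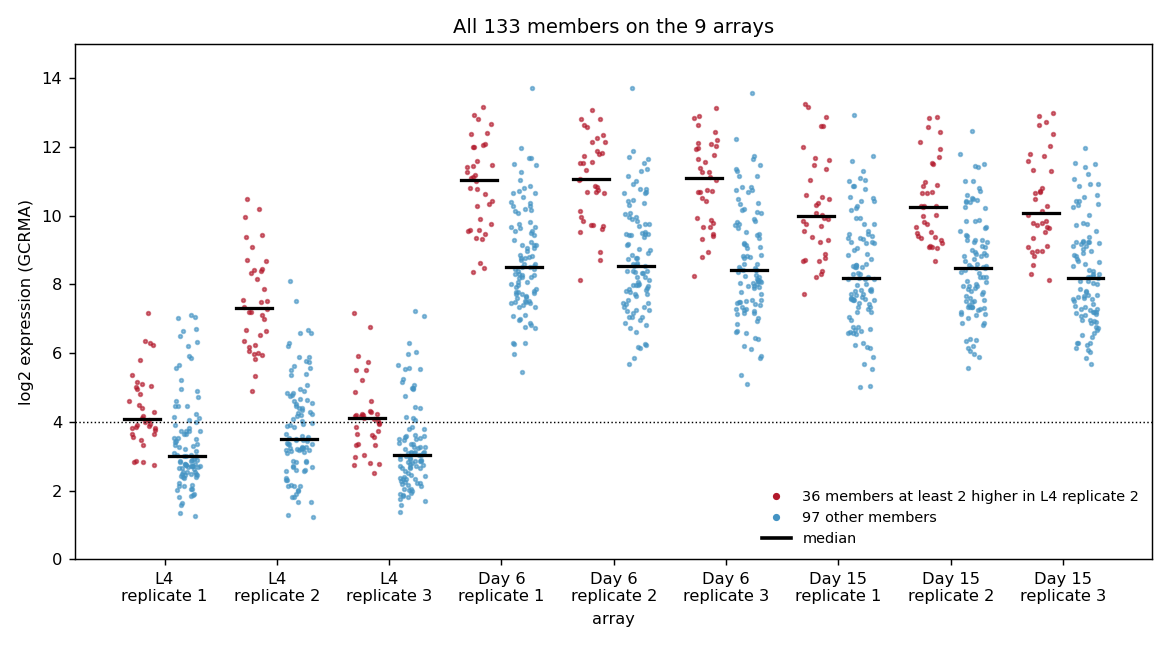
Log2 expression (y axis) of all 133 genes on each of the 9 arrays (x axis), with the 36 genes that lay at least 2 above the other larval arrays in L4 replicate 2 in red, the other 97 in blue and a black bar at the median of each. In L4 replicate 2 the red median is 7.32, against 4.07 and 4.10 on the other larval arrays, while the 3 arrays of each adult age have similar medians.

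Many markers of the adult germ line were, like these genes, higher in adults than in L4 larvae. Of 17 oocyte and eggshell genes on the array, among them oma-1 and oma-2 (oocyte maturation), rme-2 (the yolk receptor of oocytes) and cpg-1 (an eggshell proteoglycan), 16 were higher than L4 at Day 6 and 13 at Day 15 (limma, adjusted p under 0.05 and at least 2-fold), and 16 were highest of the larval arrays in L4 replicate 2, there by a median of 2.22. The log2 of their summed level was 13.4, 15.5 and 14.3 on the L4 arrays, 16.3 to 16.5 at Day 6 and 16 to 16.1 at Day 15. None of the 17 met the thresholds of the rule: their median rise was 2.27 at Day 6 and 1.77 at Day 15, and none was under 5.06 on any larval array. General germline genes were higher in 8 of 14 at Day 6 and in 10 of 14 at Day 15. Between the adult ages the medians of the 2 lists had opposite signs, but hardly any gene was called. The median of Day 15 minus Day 6 was 0.5 for the general germline genes and -0.57 for the oocyte and eggshell genes. Of the 14 general germline genes 1 was called higher at Day 15 and 0 lower. Of the 17 oocyte and eggshell genes 0 were called in either direction. Of 12 early embryo genes only 5 passed the filter on low values, and 4 of them, pie-1, mex-5, mex-6 and nos-2, which are also maternal messages, were higher at both adult ages. Of the 7 that were not tested, genes such as pes-10 that the embryo itself switches on, 5 were under 4 on all 9 arrays, while at Day 15 end-3 reached 4.19 and tbx-38 reached 4.05 on 1 array each. The part of oocyte content in the levels of the 133 genes was not tested.

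Most markers of other tissues had other profiles. Of 23 sperm genes tested, 22 were lower than L4 at Day 6 and 5 at Day 15, and all 23 were higher at Day 15 than at Day 6. Vitellogenins, the yolk proteins made by the adult intestine, were called higher than L4 in 0 of 5 at either adult age, with medians of 13.18, 13.13 and 12.94 already on the L4 arrays; 2 of the 5 were lower than L4 at Day 15, and 4 of the 5 were lower at Day 15 than at Day 6. Intestinal genes were lower in 9 of 18 at Day 6 and 15 of 18 at Day 15, hypodermal and cuticle genes in 7 and 12 of 13, and body wall muscle genes in 5 and 8 of 10. Neuronal genes were lower in 2 and 6 of 9 tested, and none was higher. In these lists only nhr-23 (hypodermal list) at both adult ages and npp-1 (intestinal list) at Day 15 were called higher than L4. Nothing here shows that npp-1 is particular to the intestine, so its rise is not read as that of an intestinal marker. Of 9 somatic gonad and vulva genes tested, 2 were higher than L4 at each adult age, none was lower at Day 6 and 3 were lower at Day 15. The 2 that were higher, inx-8 and inx-9, rose by 2.22 and 3.13 at Day 6 and by 2.04 and 3.00 at Day 15. No gene of any of these lists met the thresholds of the rule.

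Between the adult ages the mean levels were less than 2 log2 units apart by selection, with a lean towards Day 6. By the mean, 96 of the 133 genes were lower at Day 15 than at Day 6 and 36 were higher, with a median difference of -0.49 against 0.00 over all genes tested. The difference was under 0.5 in 44 genes and under 1 in 87. The 3 Day 15 arrays all lay below the 3 Day 6 arrays in 70 genes (52.6%) and all above in 24 (18%), where 33.5% and 34.5% of all genes tested were so. By limma, 23 were called lower (17.3%) and 10 higher (7.52%) at Day 15, beside 17.0% and 16.4% of all genes tested; since the rule capped this difference, nothing is read from either count. The fit takes its error from all 9 arrays, and none of the 36 genes raised in L4 replicate 2 was among these calls. In a fit to the 6 adult arrays alone, 11 of the 133 were called higher and 35 lower at Day 15, including all of the 10 and the 23; of the 36 genes, 1 was then called higher and 9 lower.

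The genes lowest at Day 15 relative to Day 6 were C27C12.1, Y58A7A.4, F02H6.2 and R04D3.3. C27C12.1 on X had 2.63, 3.26 and 2.57 in L4 larvae, 8.50, 8.86 and 8.47 at Day 6, and 6.18, 7.12 and 6.74 at Day 15, a difference of -1.93 between the adult means. F02H6.2 on IV had 3.54, 4.02 and 3.23 in L4 larvae, 9.81, 10.38 and 9.65 at Day 6, and 7.87, 8.08 and 8.25 at Day 15. Y58A7A.4 on V had 4, 7.20 and 2.99 in L4 larvae, 11.59, 11.57 and 11.97 at Day 6, and 10.03, 9.68 and 9.74 at Day 15. In all of them the adult ages did not overlap, and the lowest Day 15 array of Y58A7A.4 was 2.48 above its highest larval array. The cap of 2 ended the list just past them: C17C3.5, at -2.03, and ZK829.9, at -2.05, had the required rises and were left out.

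The genes highest at Day 15 relative to Day 6 were Y47G7B.2, Y73B3A.11, ZK84.4 and AH10.4. Y47G7B.2 on II had 3.14, 3.90 and 3.63 in L4 larvae, 7.41, 7.44 and 7.33 at Day 6, and 9.47, 9.30 and 9.38 at Day 15, a difference of 1.99. Y73B3A.11 on X had 3.45, 4.16 and 3.08 in L4 larvae, 8.22, 8.33 and 7.96 at Day 6, and 10.29, 10.25 and 9.79 at Day 15. In both genes the arrays of the 3 ages did not overlap. ZK84.4 on II averaged 3.65 ± 0.37 in L4, 7.23 ± 0.10 at Day 6 and 8.99 ± 0.28 at Day 15, and AH10.4 on V averaged 3.83 ± 0.43, 7.59 ± 0.11 and 9.21 ± 0.30 at the same ages (SD, n = 3). Y73B3A.11, ZK84.4 and AH10.4 were each measured by a probe set with an x suffix, which marks probes that can also match other transcripts, so that how much of each signal came from its own gene is uncertain; only 8 of the 133 genes were measured by such a probe set. The other 6 of the 10 genes called higher at Day 15 were C40A11.8, C44B12.6, K09D9.12, R11A5.3, W03D8.7 and Y56A3A.33, with differences from 1.16 in C44B12.6 and W03D8.7 to 1.57 in K09D9.12. Of these R11A5.3 on chromosome I had the highest level, with 5.87, 4.91 and 4.43 in L4 larvae, 10.15, 9.54 and 9.75 at Day 6, and 11.03, 11.02 and 11.08 at Day 15.

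The 133 genes were spread over all 6 chromosomes, unevenly. Chromosome X held 31 of them (23.3%, against 13.8% of the unnamed genes tested), V held 34 (25.6%, against 20.3%) and II held 30 (22.6%, against 18.4%). Chromosome I held 12 (9.02%, against 15.5%), III held 11 (8.27%, against 14.4%) and IV held 15 (11.3%, against 17.5%). By the mean, 25 of the 31 genes on X, 25 of the 34 on V and 23 of the 30 on II were lower at Day 15 than at Day 6, as were 96 of all 133. Of the 36 genes raised in L4 replicate 2, 14 lay on V and 9 on X.

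**Figure D4:**
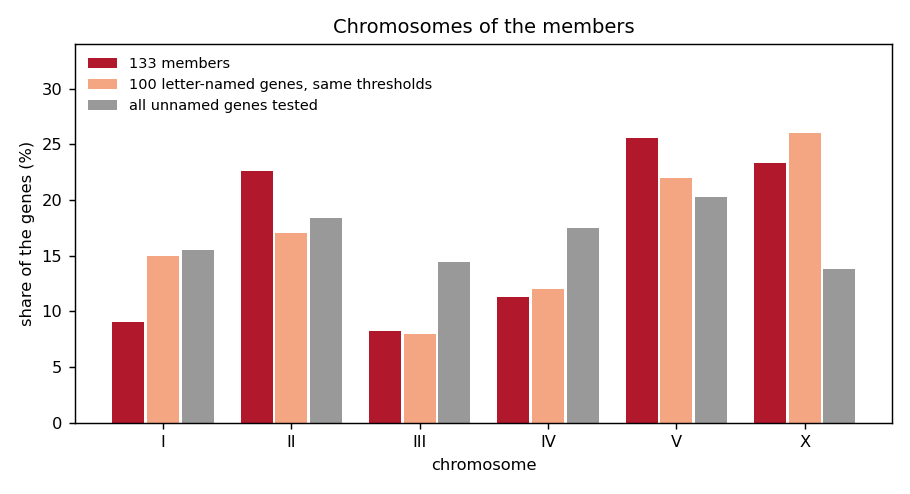
Share of genes in percent (y axis) on each chromosome (x axis) for the 133 genes, for the 100 genes with a letter name that met the same thresholds and for all unnamed genes tested. X holds 23.3% of the 133 genes, against 13.8% of unnamed genes tested; chromosomes I, III and IV hold smaller shares of the 133 than of unnamed genes tested.

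Several of the genes were neighbours. Counting protein-coding genes and pseudogenes in the RefSeq order, 36 of the 133 (27.1%) had another of the 133 with at most 5 genes between them, in 12 pairs and 4 groups of 3. Of the letter-named genes that met the same thresholds, 98 had a place in that order. Among these, 11 (11.2%) had another of their own set as near. The share for all unnamed genes was not computed, so nothing is read from either share. R04D3.2, R04D3.4 and R04D3.3 lay directly side by side on X, and F14H3.3, F14H3.4 and F14H3.5 on V. Directly adjacent pairs were F43G6.10 and F43G6.7 on II, ZK813.3 and ZK813.2 on X, and C50E3.12 and C50E3.13 on V, the last pair with C50E3.11 close by. Between the members of these groups lay 39 other genes, 27 with a probe set, of which 1 met both rises: folt-3, named here after its values were seen, averaged 3.25 in L4, 8.21 at Day 6 and 7.54 at Day 15.

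Neighbours were alike in some features and not in others. R04D3.2 had 3.64, 4.68 and 3.09 in L4 larvae, 11.50, 11.70 and 11.48 at Day 6, and 10.23, 10.42 and 10.33 at Day 15. R04D3.4 had 1.87, 4.25 and 2.71 in L4 larvae, 9.56, 9.70 and 9.83 at Day 6, and 8.74, 8.92 and 9.25 at Day 15. R04D3.3 had 3.89, 7.86 and 4.08 in L4 larvae, 11.26, 11.55 and 11.64 at Day 6, and 9.37, 10.02 and 9.85 at Day 15. All 3 were lower at Day 15 without overlap, with differences of -1.23, -0.73 and -1.74 in that order, and all 3 were highest of the larval arrays in replicate 2. F43G6.10 had 3.27, 4.84 and 3.03 in L4 larvae, 8.06, 8.01 and 8.09 at Day 6, and 7.73, 8.09 and 7.52 at Day 15. F43G6.7 had 3.51, 5.5 and 3.59 in L4 larvae, 8, 7.98 and 8.06 at Day 6, and 7.63, 8.35 and 7.77 at Day 15. This pair lay within 0.66 of each other on every array. The probe sets of R04D3.2, R04D3.3 and R04D3.4 carry an s suffix, which marks probes shared by several transcripts, so near-identical neighbours could share signal there; those of F43G6.10 and F43G6.7 do not.

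ZK813.2 had 6.35, 8.69 and 4.17 in L4 larvae, 12.42, 12.14 and 12.20 at Day 6, and 12.60, 12.15 and 12.38 at Day 15, close to the values of its neighbour ZK813.3 given above. The F14H3 genes differed more in level: F14H3.3 averaged 3.82 in L4, 10.52 at Day 6 and 9.66 at Day 15. F14H3.4 averaged 4.95 in L4, 10.81 at Day 6 and 9.27 at Day 15. F14H3.5 averaged 3.28 in L4, 8.98 at Day 6 and 7.40 at Day 15. All 3 were lower at Day 15, with differences of -0.86, -1.53 and -1.58. D1086.1 and AH10.4 on V, with 5 genes between them, went opposite ways between the adult ages: D1086.1 had 11.47, 11.29 and 11.74 at Day 6 and 9.93, 9.85 and 9.73 at Day 15, a difference of -1.66, while AH10.4 differed by 1.62.

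The other neighbours varied in the same ways. C27C12.1, given above, and C27C12.3, with 2 genes between them on X, were both at background on every larval array and both lower at Day 15: C27C12.3 had 2.03, 1.99 and 2.02 in L4 larvae, 8.59, 8.57 and 8.24 at Day 6, and 7.35, 7.35 and 7.30 at Day 15. F40G12.11 and F14D7.2 on V, also with 2 genes between them, were both raised in L4 replicate 2. F40G12.11 had 4.97, 8.46 and 5.51 in L4 larvae, 11.42, 11.81 and 11.78 at Day 6, and 10.50, 10.67 and 10.71 at Day 15. F14D7.2 had 4.05, 7.34 and 3.72 in L4 larvae, 11.20, 11.89 and 11.57 at Day 6, and 10.07, 10.89 and 10.69 at Day 15. F54F7.6 and Y62H9A.3 on X, with 3 genes between them, were unlike: F54F7.6 had 2.12, 1.68 and 2.35 in L4 larvae, 8.45, 7.85 and 8.05 at Day 6, and 9.21, 8.89 and 8.93 at Day 15, with no rise in L4 replicate 2 and higher values at Day 15, while Y62H9A.3 was raised in L4 replicate 2 and was lower at Day 15. On the C04B4 and W06D11 clones of X, C04B4.2 averaged 3.82 ± 1.85 in L4, 9.89 ± 0.11 at Day 6 and 8.97 ± 0.20 at Day 15 (SD, n = 3). W06D11.1 averaged 2.93 ± 0.59 in L4, 8.46 ± 0.08 at Day 6 and 8.37 ± 0.13 at Day 15 (SD, n = 3), the only one of this group of 3 whose adult ages overlapped.

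**Figure D5:**
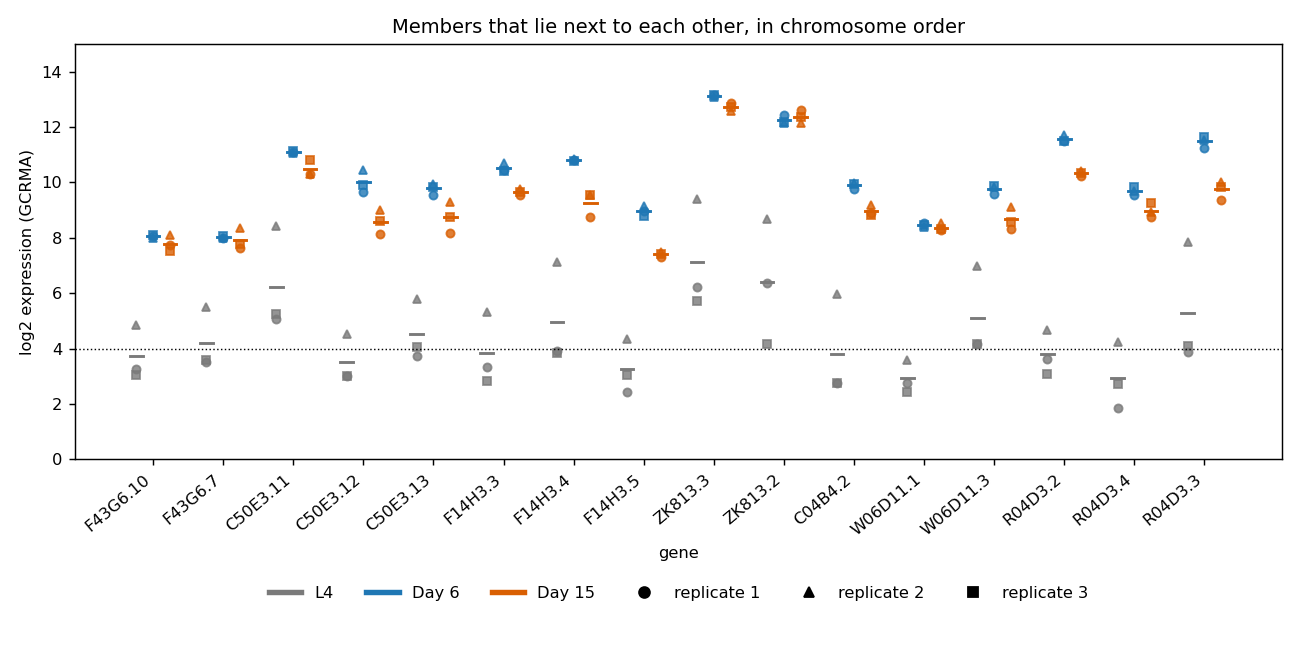
Log2 expression on each array (y axis) of genes among the 133 that lie directly side by side or in groups of 3, in chromosome order (x axis); colours, symbols, bars and the dotted line at 4 are as for the genes with the highest adult levels. Within each set of neighbours L4 replicate 2 (triangle) is the highest larval array, and Day 15 means lie below Day 6 means in all genes but ZK813.2.

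The 8 annotated pseudogenes were not confined to low levels. They are C33E10.3, F02H6.4, F21D9.6, F43D2.2, F54D11.3, K09D9.12, Y49E10.26 and Y9D1A.2, and their Day 6 means ran from 6.51 in C33E10.3 to 10.69 in Y9D1A.2. F54D11.3 on V had 3.00, 4.19 and 2.79 in L4 larvae, 9.50, 9.46 and 9.46 at Day 6, and 10.56, 10.45 and 10.32 at Day 15, so all its Day 15 arrays lay above its Day 6 arrays. Y9D1A.2 on II had 5.21, 5.58 and 5.57 in L4 larvae, 10.80, 10.78 and 10.48 at Day 6, and 9.93, 9.87 and 9.11 at Day 15, the reverse order of the adult ages. The probe sets of Y9D1A.2 and Y49E10.26 carry the x suffix, so other transcripts may add to their signal.

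For 21 of the 133 genes the array carries 22 further probe sets that the rule did not use. They measure the same RNA, so they describe the probes rather than replicate the result. Of the 22, 20 showed rises of at least 1 at both adult ages and 11 passed all thresholds. The second probe set of C53B7.3 averaged 4.35 in L4, 11.64 at Day 6 and 11.77 at Day 15, and that of F15E6.3 averaged 3.27, 12.12 and 10.10 at those ages. By its second probe set F15E6.3 differed by -2.02 between the adult ages, past the limit of 2, so it would not have met the rule. The 2 probe sets without such rises were below background at all 3 ages: that of F19B10.2 averaged 1.87 in L4, 1.79 at Day 6 and 1.88 at Day 15, and that of C35E7.5 averaged 1.38, 1.67 and 1.62. For these genes the adult level rests on 1 of 2 probe sets. Among the 20, the second probe set of ZK177.1 was also under 4 at all 3 ages, with means of 1.76, 3.91 and 3.10. That of C27C12.3 averaged 1.63, 4.05 and 2.95.

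The thresholds cut through a continuous range. Y65B4A.8, C09E7.8 and C31E10.5 were just inside, with smaller rises of 3.52, 3.52 and 3.54, and F19B10.1, F55C9.5 and C33D9.5 were just outside, with 3.4967, 3.49 and 3.48. Of 145 unnamed genes with both rises, 12 were dropped for their difference between adult ages, 7 of them higher and 5 lower at Day 15 by 2 or more.

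Genes with a letter name met the same thresholds in 100 of 10403 cases (0.961%), against 1.98% of unnamed genes. Their changes were of similar size, with medians of 5.12 for Day 6 minus L4, 4.86 for Day 15 minus L4 and -0.29 for Day 15 minus Day 6. They were on X in 26% of cases, against 23.3% of the 133 unnamed genes. L4 replicate 2 was raised by at least 2 in 12 of the 100, against 36 of the 133. Of the 100, 3 are given here as examples picked after their values were seen. The germ granule gene meg-1, active in the early embryo, averaged 5.31 in L4, 11.11 at Day 6 and 10.12 at Day 15. The oocyte regulator lin-41 averaged 5.22 in L4, 9.08 at Day 6 and 9.07 at Day 15. The neuropeptide gene nlp-39 averaged 2.19 in L4, 9.44 at Day 6 and 8.46 at Day 15.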

How the data were processed

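Whole-animal RNA of L4, Day 6 and Day 15 hermaphrodites (3 arrays an age) was hybridized to Affymetrix C. elegans arrays. The deposited values are log2 expression that the authors computed with GCRMA (version not given in the sources used here); GCRMA models background and quantile-normalizes arrays, so low values are compressed and folds of genes near background are uncertain. MAS5 present calls, which the authors used as a filter, were not used here. The precision is limited by the number of arrays.

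Of 22625 probe sets, 20766 stand for 1 gene in the array annotation; gene IDs were matched to the RefSeq gene table (WBcel235) for 20701 of them, which gave names, gene types, chromosomes and neighbours. Coordinates and sequences were not used here. Each of 17118 genes was represented by its probe set with the highest mean. A gene was tested where at least 1 age averaged 4 or more (11758 genes), with limma (version 3.58.1, R 4.3.3), 1 fit of 9 arrays with 3 groups, without a block; called genes had a Benjamini-Hochberg adjusted p under 0.05 and at least 2-fold change. The study's own test was an unpaired t-test; it was run as an alternative. The limma step was tested on simulated data.

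The genes, thresholds and marker lists were chosen with earlier results of these data known. Genes named in the text were the 5 with the highest adult means, the 5 with the largest smaller rise, the 4 highest and 4 lowest in Day 15 minus Day 6, the 4 with the largest SD within an age, those next to a threshold and those with a neighbour among the 133, with a few others marked as chosen after their values were seen or given as next in order; protein families and product names, also part of this rule, were not used here. The alternatives changed the probe set choice, scaling, the floor at 4, the filter, the variance model, the arrays used, the replicate block and the thresholds.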

Additional observations from a re-analysis of the deposited data

How the results depend on the processing

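The genes were chosen for large rises, so the direction of their median change is fixed and says nothing of stability. The median change of the 133 genes was 4.61 for Day 6 minus L4 and 4.30 for Day 15 minus L4 with values under 4 set to 4. Leaving out 1 array at a time gave medians of 4.92 to 5.54 for Day 6 minus L4, 4.56 to 5.39 for Day 15 minus L4 (the highest without L4 replicate 2) and -0.54 to -0.46 for Day 15 minus Day 6, and 126 to 159 genes met the rule. A limit of 1 between the adult ages left 87 genes, rises of at least 3 gave 197 and of at least 4 gave 100; probe sets without an s or x suffix gave 94, values under 4 set to 4 gave 94, and arrays centred on their median gave 177. Of the 133, 10 were called higher and 23 lower at Day 15 than at Day 6. With only suffix-free probe sets 94 of the 133 were tested, and 6 were called higher and 19 lower. With only the 6 adult arrays 35 were called lower. Leaving out 1 array gave 9 to 11 higher and 16 to 35 lower (35 without L4 replicate 2). Of the 36 genes raised in L4 replicate 2, 9 were called lower without that array and 0 in the fit of 9 arrays. The cause of these shifts was not tested. Over all genes, centring the arrays on their median moved the median of Day 6 minus L4 to 0.58 and the share of calls that were higher to 65.4%, against 54.3% as deposited; for Day 15 minus L4 these were 0.54 and 63.1%, against 0.23 and 54.7%. The growth protocol divides each L4 population into harvested and aged animals, but the labels do not say that a replicate number marks the same population across ages, and the deviations of same-numbered arrays correlated at -0.056 to 0.185; the numbers were therefore not taken as pairs. With the replicate number as a block, 6343, 6923 and 3926 genes were called for Day 6 minus L4, Day 15 minus L4 and Day 15 minus Day 6, against 6339, 6934 and 3922 without it, and 10 of the 133 were called higher and 25 lower at Day 15 than at Day 6. The methods' t-test called 5715, 6301 and 4142 genes at an unadjusted p of 0.05 or less and 5172, 5782 and 4036 after Benjamini-Hochberg adjustment; after adjustment it called 131 of the 133 higher at Day 6 and 129 at Day 15, against all 133 at each age by limma. With 3 arrays an age and an L4 array that stands apart, the size of the larval level, and so of each rise, is the least certain value.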
